A study of Mus musculus with 6 samples.

Results

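The Krüppel-like factors (KLFs) are transcription factors, and 10 of their genes were followed here in cultured B16 mouse melanoma cells with and without the interferon-γ receptor subunit IFNγR1. The genes were Klf2, Klf3, Klf4, Klf5, Klf6, Klf7, Klf9, Klf10, Klf11 and Klf13, found by matching the Ensembl identifiers of the count tables to these symbols in GENCODE release M21, and they make up 10 of the 55335 genes counted. They were chosen by name, without a threshold, from the wider family and with the counts of these libraries and their difference between the groups already known. That difference is therefore given for the members as a description and not as a test.

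Poly(A)-selected RNA was sequenced with paired-end reads from 3 scrambled control and 3 IFNγR1KO cultures of the B16-BL6 line. Both were made with the lentiCRISPR v2 vector, which delivers Cas9 and a guide RNA, followed by puromycin selection. The control guide was directed against GFP and the IFNγR1KO guides against Ifngr1. Both groups were grown in the same medium, the labels name no treatment, and the genotypes are labelled WT and IFNyR1KO. Each group's 3 cultures were plated 1 night ahead of lysis. Transduced cells were seeded at about 1 per well and screened as single clones, and which guide or clone was sequenced is not stated in the sources used here, so a difference due to the receptor and one between clones cannot be told apart. The p-values below measure the spread between these cultures, which may be technical.

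Control libraries held 9402640 to 10579788 counts on genes and IFNγR1KO libraries 6698956 to 7409479, so that 1 count stood for 0.0966 to 0.109 and 0.135 to 0.142 CPM, respectively. CPM are counts scaled to a common library size with the TMM factor of each library. Ifngr1 was at 15.9 ± 1.35 CPM in control and 11.5 ± 0.0902 CPM in IFNγR1KO cells (SD, n = 3 each). Its difference did not pass the test (log2 fold change -0.47 with a standard error, SE, of 0.16, adjusted p = 0.0729 from edgeR). The 7 melanocyte markers examined (Mitf, Sox10, Tyr, Tyrp1, Dct, Pmel and Mlana) were counted in every library and summed to 31700 to 34700 CPM in control and 27900 to 32800 CPM in IFNγR1KO cells. The 3 leukocyte, 2 endothelial and 3 keratinocyte markers were at or under 3 counts in every library. Scrambled control 3 and IFNγR1KO 12 stood apart from the other libraries of their groups. The chi-square per degree of freedom over genes was 20.4 and 22.7 between control 3 and the other controls, against 9.25 between those. It was 15 and 18.4 between IFNγR1KO 12 and its partners, against 2.62 between replicates 10 and 11. Results are given without both libraries where they rest on them.

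KLFs end in a row of zinc fingers that bind GC-rich and CACCC elements, the same class of sites as the related SP factors. Outside the fingers the proteins differ. KLF3, KLF8 and KLF12 recruit the corepressor CtBP. KLF9, KLF10, KLF11, KLF13 and KLF16 bind the SIN3 corepressor, and KLF2, KLF4, KLF5, KLF6 and KLF7 act largely as activators. Many of their mRNAs are short-lived and are induced by growth factors, TGF-β, hormones or stress.

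Of the 10 members, 8 passed the filter on low counts. Klf2 and Klf5 did not and were not tested. In the comparison of IFNγR1KO with control cells, fitted over 13642 genes, a gene was called when its adjusted p was under 0.05 in edgeR's quasi-likelihood test. Klf4, Klf6 and Klf9 were called higher. The background was 7.73% of all tested genes called higher and 7.62% called lower. With the added limit of an absolute log2 fold change above 1, Klf4 was the member counted as differentially expressed and higher, against 3.25% of all genes. No member was called lower in edgeR's test. At an unadjusted p under 0.05 there were 4 higher members and 1 lower, Klf10, against 1933 higher and 2015 lower of all 13642 genes. DESeq2's Wald test called 2 members higher, Klf4 and Klf6, and 0 lower, against 920 and 1102 over all genes. The groups did not overlap for Klf3, Klf4, Klf6 and Klf9, which were higher in all 3 IFNγR1KO libraries, and for Klf10, which was lower. The groups of 32.6% of all tested genes did not overlap, in either direction. Because the members were picked with this comparison in view, nothing is read from these shares. The median log2 fold change of the 8 tested members was 0.31, beside -0.00147 over all tested genes. In RNA of whole cultures, more transcript per cell and more cells with the transcript cannot be told apart.

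**Figure D1:**
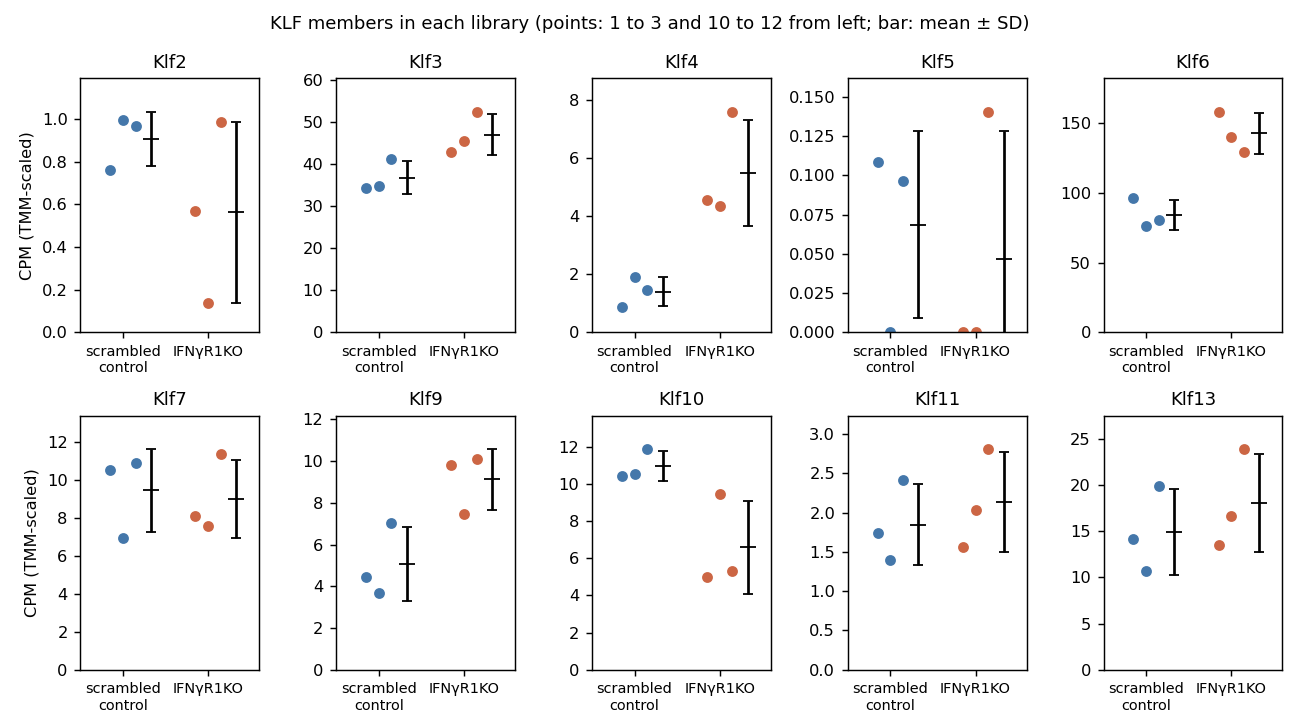
CPM of each of the 10 KLF genes (vertical axis, linear from 0, 1 panel per gene) in the 3 scrambled control libraries (blue, replicates 1 to 3 from the left) and the 3 IFNγR1KO libraries (orange, replicates 10 to 12), with the mean ± SD of each group as a black bar. The groups are separate for Klf3, Klf4, Klf6, Klf9 and Klf10, and the other 5 overlap.

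Klf6, which encodes an early-response factor found in most tissues and known from wound repair and liver fibrosis, was the most abundant member. It was at 96.3, 76.0 and 80.6 CPM in the 3 control libraries and at 158, 140 and 129 CPM in the 3 IFNγR1KO libraries. The lowest IFNγR1KO value was thus above the highest control value. The means were 84.3 ± 10.6 and 143 ± 14.7 CPM (SD, n = 3 each), 1.69-fold higher in IFNγR1KO cells. The fitted log2 fold change was 0.76 (SE 0.14). Klf6 was called higher in each of the 11 alternative analyses, with log2 fold changes between 0.68 and 0.86, but these reuse the same counts.

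Klf4 encodes a factor of epithelial differentiation and growth arrest that is best known from the reprogramming of cells to pluripotency. Its counts were low, with 8, 19 and 15 in control and 32, 32 and 54 in IFNγR1KO libraries. These counts correspond to 0.868, 1.89 and 1.45 CPM and to 4.55, 4.34 and 7.59 CPM. IFNγR1KO 12 was the highest library, and the other IFNγR1KO libraries were close to each other and well above the controls. The means were 1.40 ± 0.513 and 5.49 ± 1.82 CPM (SD, n = 3 each), 3.91-fold higher in IFNγR1KO cells, with a log2 fold change of 1.95 (SE 0.35). This was the largest difference among the tested members. It was also called in each of the 11 alternatives, with log2 fold changes between 1.64 and 2.21, but these reuse the same counts. Klf4 met the filter on low counts only through its IFNγR1KO libraries, since control 1, at 8 counts, was too low. With control 3 and IFNγR1KO 12 both left out, it was 1.66 and called.

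Klf7, a factor of neuronal outgrowth, did not separate the groups. It was at 10.5, 6.97 and 10.9 CPM in control and 8.10, 7.59 and 11.4 CPM in IFNγR1KO libraries, with a log2 fold change of -0.07 (SE 0.23) whose sign changed when single libraries were left out. Klf2, which maintains quiescence in T cells and endothelium, had 7, 10 and 10 counts in control and 4, 1 and 7 counts in IFNγR1KO libraries. Its mean was 0.907 ± 0.128 and 0.563 ± 0.424 CPM (SD, n = 3 each), and the groups overlapped. Klf5, which drives proliferation of the gut and other epithelia, had 1, 0 and 1 counts in control and 0, 0 and 1 counts in IFNγR1KO libraries. Both groups were at or under 3 counts in every library, so no fold is given for Klf5.

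Among the members that bind SIN3, Klf9 and Klf10 differed in opposite directions. Klf9, which is induced by thyroid hormone and glucocorticoids, was at 4.45, 3.68 and 7.05 CPM in control and at 9.80, 7.45 and 10.1 CPM in IFNγR1KO libraries. Control 3 and IFNγR1KO 11 nearly met. The means were 5.06 ± 1.77 and 9.12 ± 1.46 CPM (SD, n = 3 each), 1.80-fold higher in IFNγR1KO cells, with a log2 fold change of 0.84 (SE 0.26). The call of Klf9 was held in 1 of the 6 fits that each left out a library, the one without control 3, where the log2 fold change was 1.16. It was lost without control 1 (0.76), control 2 (0.65), IFNγR1KO 10 (0.79), IFNγR1KO 11 (0.99) and IFNγR1KO 12 (0.76), and also with DESeq2 and with libraries thinned to a common depth.

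Klf10, also known as TGF-β-inducible early gene, was at 10.4, 10.5 and 11.9 CPM in control and at 4.97, 9.48 and 5.34 CPM in IFNγR1KO libraries. Every IFNγR1KO library was below every control library, but IFNγR1KO 11 lay close to the controls. The means were 10.95 ± 0.812 and 6.60 ± 2.50 CPM (SD, n = 3 each), with 1.66 times the IFNγR1KO mean in control cells and a log2 fold change of -0.73 (SE 0.24). The call of Klf10 depended on IFNγR1KO 11 and on the filter on low counts. Without that library the log2 fold change was -1.07 and Klf10 was called lower, and without IFNγR1KO 10 it was -0.56 and was not called. Klf10 was also called lower without a filter on low counts.

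Klf11, the closest relative of Klf10 and likewise induced by TGF-β, was at 1.74, 1.39 and 2.42 CPM in control and 1.56, 2.03 and 2.81 CPM in IFNγR1KO libraries. Klf13, known as an activator of Ccl5 in T cells, was at 14.1, 10.7 and 19.9 CPM in control and 13.5, 16.7 and 23.9 CPM in IFNγR1KO libraries. Both overlapped between the groups. Their log2 fold changes were 0.20 (SE 0.35) and 0.27 (SE 0.25). That of Klf11 ran from -0.04 without IFNγR1KO 12, the only alternative below 0, to 0.45 without control 3. That of Klf13 ran from 0.0144 without IFNγR1KO 12 to 0.54 without control 3.

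Klf3, the member that recruits CtBP and acts mainly as a repressor, was at 34.3, 34.7 and 41.3 CPM in control and at 42.9, 45.5 and 52.4 CPM in IFNγR1KO libraries. The groups were separate by a narrow margin, between control 3 and IFNγR1KO 10. The means were 36.8 ± 3.90 and 47.0 ± 4.93 CPM (SD, n = 3 each), 1.28-fold higher in IFNγR1KO cells. Klf3 was not called, with a log2 fold change of 0.35 (SE 0.14) that ran from 0.26 to 0.44 over the alternatives.

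**Figure D2:**
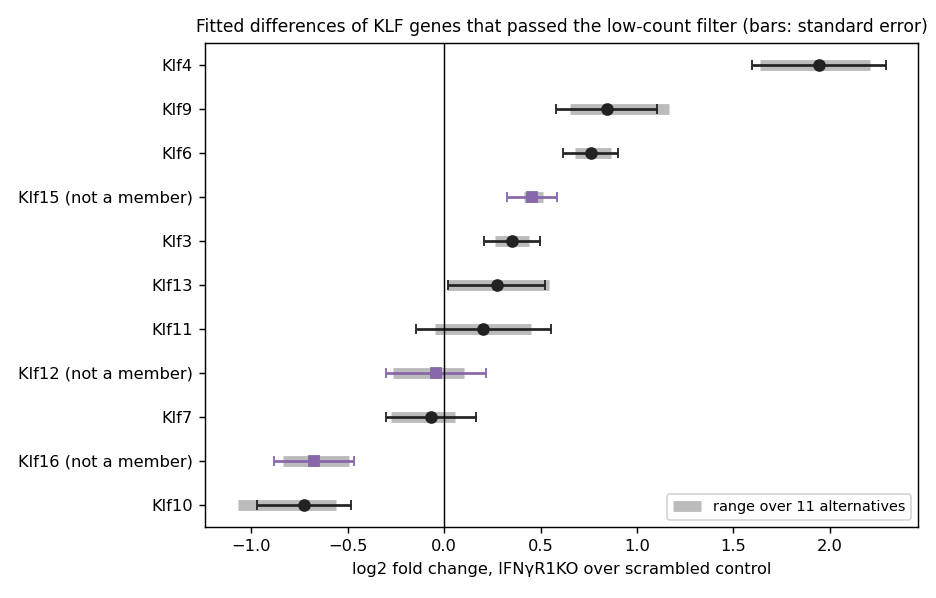
Fitted log2 fold change of IFNγR1KO over scrambled control (horizontal axis) of the 8 tested members (black circles) and of 3 further KLF genes (purple squares), with standard errors as bars and the range over 11 alternative analyses in gray. Klf4 lies farthest to the right at 1.95 and Klf10 farthest to the left at -0.73, and the gray ranges of Klf7, Klf11 and Klf12 cross 0.

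Several members were highest in the same libraries. Of the 8 tested members, 6 had their highest control value in control 3 and 6 had their highest IFNγR1KO value in IFNγR1KO 12. Among all tested genes these libraries held the highest value of their group for 39.3% and 41.1%. Klf6 was an exception in both groups, with its highest values in control 1 and IFNγR1KO 10. The coefficient of variation within a group was 7.41% to 36.5% in control and 10.3% to 37.9% in IFNγR1KO cells for the tested members. Klf3 and Klf6 were the steadiest members across both groups, at 10.3% to 12.6%. With control 3 and IFNγR1KO 12 both left out, 3 members were called higher and 0 lower by edgeR, with a median log2 fold change of 0.32. Over all genes, 1447 were then called higher and 1617 lower, against 1054 and 1039 with all libraries. With single libraries left out, the median was 0.14 without IFNγR1KO 12, 0.19 without control 2 and 0.50 without control 3. In that fit of 2 against 2 libraries Klf9 had a log2 fold change of 1.08 and Klf10 of -0.53.

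To compare levels between genes, CPM were divided by the length of the merged exons. On this per-length scale, Klf6 led in both groups, with 19.2 ± 2.42 CPM per kb in control and 32.5 ± 3.34 CPM per kb in IFNγR1KO cells (SD, n = 3 each). In control cells it was followed among the members by Klf3 at 3.27 ± 0.347, Klf10 at 2.62 ± 0.194, Klf13 at 1.98 ± 0.621, Klf7 at 1.16 ± 0.268 and Klf9 at 1.05 ± 0.367 CPM per kb. Klf10 and Klf13 overlapped over their 3 libraries, and so did Klf7 and Klf9. Klf2, Klf4 and Klf11 followed at 0.491, 0.460 and 0.426 CPM per kb and overlapped as well. In IFNγR1KO cells, Klf3 was at 4.18 ± 0.438 CPM per kb. Klf13, Klf9, Klf4 and Klf10 came next at 2.39, 1.90, 1.80 and 1.58 CPM per kb, and each overlapped its neighbor. Klf4 thus stood beside Klf9 and Klf10 in IFNγR1KO cells and beside Klf2 and Klf11 in control cells. With the longest transcript as the length, Klf3 rose to 7.04 CPM per kb in control cells, because its merged exons span 11243 bases and its longest transcript 5221.

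**Figure D3:**
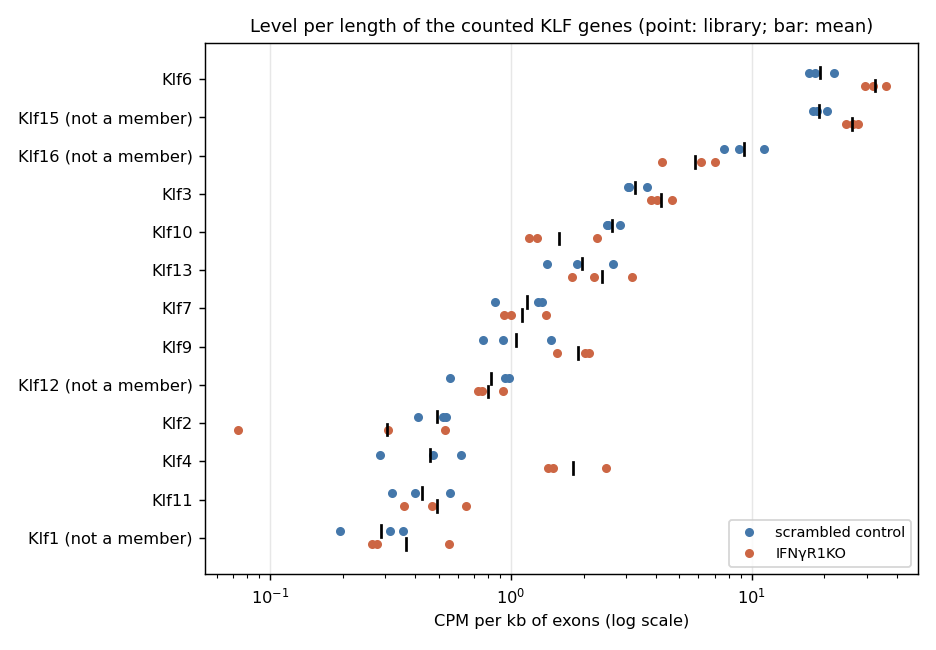
CPM per kb of merged exons (horizontal axis, log scale) of the 13 KLF genes with more than 3 counts in a library, for each scrambled control library (blue) and IFNγR1KO library (orange), with group means as black bars. Klf6 and Klf15 lie at the top in both groups, and Klf4 moves from the lower end to the middle of the order.

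Together, the 10 members summed to 27.4 to 32.7 CPM per kb in control and 44.9 to 48.1 CPM per kb in IFNγR1KO libraries, and most of this was Klf6. Over all 17 KLF genes of the annotation that were examined, the sum was 60.1 ± 2.75 and 79.4 ± 2.15 CPM per kb (SD, n = 3 each). Klf6 made up 32.0% ± 4.17 of it in control and 41.0% ± 5.18 in IFNγR1KO cells. The share of Klf4 was 0.769% ± 0.300 and 2.26% ± 0.682, and that of Klf10 was 4.36% ± 0.166 and 2.00% ± 0.779 (SD, n = 3 each).

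The members lie apart from each other on GRCm38, on 10 different chromosomes, as single genes. Klf4 spans 55527143 to 55532466 on the minus strand of chromosome 4, Klf6 spans 5861482 to 5870394 on the plus strand of chromosome 13, and Klf9 spans 23141226 to 23168134 on the plus strand of chromosome 19. Klf10 lies at 38291463 to 38300706 on the minus strand of chromosome 15 and Klf3 at 64803388 to 64832901 on the plus strand of chromosome 5. Klf7 (chromosome 1, 64029447 to 64122282, minus strand) was the member with most overlap: 39.4% of its exonic bases lie under exons on the other strand, mainly of Gm26649, annotated as a lincRNA. For Klf3 this share is 3.59%, under Gm20033, which had 45 to 67 counts in each library. No exon of the other 8 members overlaps an exon of another gene. The strand setting of the counting is not given in the sources used here, so reads of these pairs could be counted on either gene or set aside as ambiguous. The zinc fingers of the family are alike in sequence, so the transcripts were compared. Of all stretches of 50 bases in the transcripts of each member, at most 0.350% occurred in a transcript of another gene in the same orientation, and none of these genes was a member.

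Promoter windows of 8 members, from 250 bases before to 50 bases after the start, were taken from RefSeq on GRCm38.p6. No window was matched for Klf5 and Klf10. Those of the 3 members called higher are shown because these genes share their direction. Each is given 5′ to 3′ on the strand of its gene up to the annotated start. Capitals mark the GC box GGGCGG, the CACCC box, CCAAT, the E-box CACGTG and the STAT-type element TTCNNNGAA, on either strand, overlapping matches included. The stretches lie at chr4:55532476-55532725 on the minus strand (Klf4), chr13:5861239-5861481 on the plus strand (Klf6) and chr19:23140976-23141225 on the plus strand (Klf9).
Klf4: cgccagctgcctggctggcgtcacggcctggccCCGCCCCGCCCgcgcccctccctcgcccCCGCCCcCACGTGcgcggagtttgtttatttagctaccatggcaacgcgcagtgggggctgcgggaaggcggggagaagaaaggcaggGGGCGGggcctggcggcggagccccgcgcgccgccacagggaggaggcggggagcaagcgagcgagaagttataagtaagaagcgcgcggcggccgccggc
Klf6: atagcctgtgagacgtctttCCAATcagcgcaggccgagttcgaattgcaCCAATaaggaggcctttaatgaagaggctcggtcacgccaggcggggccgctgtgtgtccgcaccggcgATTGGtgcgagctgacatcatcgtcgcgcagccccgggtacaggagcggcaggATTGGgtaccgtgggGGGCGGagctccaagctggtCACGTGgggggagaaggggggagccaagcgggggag
Klf9: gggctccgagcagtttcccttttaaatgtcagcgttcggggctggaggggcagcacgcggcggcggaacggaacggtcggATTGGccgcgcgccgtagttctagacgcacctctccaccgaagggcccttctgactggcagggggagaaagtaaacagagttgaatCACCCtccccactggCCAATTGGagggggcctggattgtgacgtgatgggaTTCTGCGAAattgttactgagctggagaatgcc

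The promoters of these genes differed in the elements they held. Klf4 had 4 GC boxes, of which a pair overlaps by 1 base, and 1 E-box, Klf6 had 4 CCAAT elements, 1 GC box and 1 E-box, and Klf9 had 3 CCAAT elements, 1 CACCC box and 1 TTCNNNGAA match. A pair of the CCAAT matches of Klf9 overlaps on opposite strands in CCAATTGG. Over the 8 windows, GGGCGG was found in 7, against 35.7% of all 32851 promoter windows, and CACCC in 5, against 57.5%. CCAAT was found in 4 (37.4% of all), CACGTG in 3, those of Klf4, Klf6 and Klf11 (7.15% of all), and TTCNNNGAA in Klf9 alone (8.30% of all). The MEF2 motif was found in the window of Klf2 alone and in 1.86% of all windows. The AP-1 site TGACTCA, the CRE TGACGTCA and TGATGNAAT, the composite element of C/EBP and ATF factors, were found in 0 of the 8 windows and in 5.20%, 1.79% and 0.965% of all. The windows of the 8 members were 58.3% to 77.7% G and C, where the median of all windows was 52.7%, and GC-rich motifs occur more often in such sequence. These matches describe the letters only.

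Of the 7 KLF genes that are not members, 3 passed the filter on low counts. Klf15, a regulator of glucose and amino acid metabolism in liver and muscle, was at 50.2, 57.4 and 51.9 CPM in control and at 68.5, 73.4 and 76.9 CPM in IFNγR1KO libraries, and the groups did not overlap. It was called higher (log2 fold change 0.46, SE 0.13, adjusted p = 0.0322 from edgeR). On the per-length scale Klf15 was at 19.0 ± 1.36 CPM per kb in control (SD, n = 3), which overlapped Klf6, and at 26.1 ± 1.52 CPM per kb in IFNγR1KO cells, below every value of Klf6. Klf16, a SIN3-binding factor, was at 20.5, 23.7 and 30.1 CPM in control and at 11.4, 16.4 and 18.8 CPM in IFNγR1KO libraries. It was called lower (log2 fold change -0.67, SE 0.21, adjusted p = 0.0459 from edgeR). Klf12, a CtBP-binding repressor, did not pass the test (log2 fold change -0.04, SE 0.26, adjusted p = 0.942 from edgeR), and its sign changed between alternatives. The calls of Klf15 and Klf16 were not firm. With any 1 of the 6 libraries left out, the adjusted p of Klf15 from edgeR was 0.0548 to 0.117. That of Klf16 was 0.113 without control 2, 0.115 without control 3, 0.185 without IFNγR1KO 10 and 0.123 without IFNγR1KO 11. Without both control 3 and IFNγR1KO 12 they were 0.0285 and 0.0164. Klf1, the erythroid factor, had 3 to 6 counts in each library. Klf8, Klf14 and Klf17 had at most 2 counts in any library.

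None of the 5 tested genes of the SP family was called by edgeR, and DESeq2 called 0. All 5 had estimates above 0, and 2 of them, Sp2 and Sp9, had an unadjusted p under 0.05. Of all 13642 tested genes, 6794 had estimates above 0 and 1933 were higher at that p. Sp1 and Sp3, the ubiquitous members, had log2 fold changes of 0.04 (SE 0.17, adjusted p = 0.905 from edgeR) and 0.17 (SE 0.14, adjusted p = 0.453 from edgeR), and Sp1 changed sign when single libraries were left out. Sp2 and Sp4 had log2 fold changes of 0.48 (adjusted p = 0.143 from edgeR) and 0.23 (adjusted p = 0.423 from edgeR). Sp9 was at 3.34 ± 0.400 CPM in control and 5.75 ± 1.09 CPM in IFNγR1KO cells (SD, n = 3 each), with an adjusted p of 0.0510 from edgeR that was 0.0210 without IFNγR1KO 12 and 0.0331 without control 3 and IFNγR1KO 12.

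The genes around the family were taken from 6 further lists, of cofactors, ubiquitin ligases, upstream pathways and target genes known from other tissues. Over these and the 2 family lists, 93 of 115 genes were tested, and 9 were called higher and 9 lower. That is 19.4% of those tested, where 15.3% of all tested genes were called in either direction. By list the share was 66.7% (other KLF genes), 0% (SP family), 9.52% (corepressors and coactivators) and 20% (ubiquitin ligases). It was 13.3% (TGF-β signaling), 9.09% (MEK5-ERK5-MEF2 and FOXO), 20% (nuclear receptors and clock) and 42.9% (KLF targets). The lists are small and were chosen with earlier results of these data known, so nothing is read from these shares.

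Among 21 corepressors and coactivators, all tested, 2 were called lower and 0 higher by edgeR, with 0 higher also at an unadjusted p under 0.05 and by DESeq2. The median log2 fold change was -0.06. The 2 were Rbbp7, a histone-binding subunit of the SIN3 and NuRD complexes (log2 fold change -0.44, SE 0.13, adjusted p = 0.0316 from edgeR), and Wdr5, a subunit of H3K4 methyltransferase complexes (-0.47, SE 0.13, adjusted p = 0.0272). Both calls were lost in 5 of the 6 fits that left out a library, all but the one without IFNγR1KO 12, with adjusted p up to 0.148 for Rbbp7 and 0.124 for Wdr5. Ctbp1 and Ctbp2, which encode CtBP, and Sin3a and Sin3b were not called. Their log2 fold changes were -0.10, 0.15, -0.42 and -0.03.

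Of 10 ubiquitin ligase genes listed for their action on KLF proteins or as close relatives, 2 were called higher and 0 lower by edgeR (1 lower at an unadjusted p under 0.05, 0 by DESeq2), and the median log2 fold change was 0.0034. Siah1a, a ligase described for KLF10, was at 18.0, 12.4 and 14.3 CPM in control and at 30.7, 32.4 and 27.8 CPM in IFNγR1KO libraries. Its log2 fold change was 1.02 (SE 0.17, adjusted p = 0.00192 from edgeR), and 5.996% of its exonic bases lie under an exon on the other strand. Its close relative Siah1b had a log2 fold change of -0.15 (adjusted p = 0.645 from edgeR). Reads that align to both genes would be set aside as not unique, and how many do was not examined. Fbxo32, the muscle-atrophy ligase atrogin-1, rose from 1.39 ± 0.0814 to 4.62 ± 1.80 CPM (SD, n = 3 each; log2 fold change 1.72, SE 0.34, adjusted p = 0.00481 from edgeR). Both genes were called whichever of the 6 libraries was left out. Wwp1 and Fbxw7, which target KLF2 and KLF5, were not called, with log2 fold changes of -0.40 and -0.21.

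Of the 16 genes of TGF-β signaling, which induces Klf10 and Klf11, 15 were tested. The median log2 fold change was -0.24, with 10 estimates below 0, and 1 gene was called in each direction. Of all 13642 tested genes, 6848 had estimates below 0. Tgif1, a corepressor of SMAD proteins, rose from 11.0 ± 2.48 to 29.2 ± 3.53 CPM (SD, n = 3 each; log2 fold change 1.41, SE 0.19, adjusted p = 0.000482 from edgeR). Tgfbr2, the ligand-binding receptor, fell from 47.0 ± 3.58 to 30.8 ± 5.94 CPM (log2 fold change -0.61, SE 0.16, adjusted p = 0.0240 from edgeR). The adjusted p of Tgfbr2 was 0.0745 without control 2 and 0.120 without IFNγR1KO 10. Without IFNγR1KO 12, 7 genes of the list were called. The calls over all genes also rose in that fit, from 1054 to 1372 higher and from 1039 to 1452 lower. Smad7, which KLF10 represses, was not called (log2 fold change 0.41, SE 0.21, adjusted p = 0.219 from edgeR).

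Of 11 genes of the MEK5-ERK5-MEF2 route and of FOXO factors, which control Klf2 and Klf4 in other cells, 1 was called. This was Mef2b, at 0.940 ± 0.287 CPM in control and 2.55 ± 0.612 CPM in IFNγR1KO cells (SD, n = 3 each; log2 fold change 1.42, SE 0.37, adjusted p = 0.0220 from edgeR). It was not called without control 1 (adjusted p = 0.0627 from edgeR), control 2 (0.0949) or IFNγR1KO 11 (0.102), nor by DESeq2 (0.0622). Mapk7, which encodes ERK5, had a log2 fold change of 0.15.

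Of 18 nuclear receptor and clock genes, 15 were tested, 1 was called higher and 2 lower, and the median log2 fold change was 0.06. Nr3c1, the glucocorticoid receptor, and Thra, a thyroid hormone receptor, which act upstream of Klf9, had log2 fold changes of 0.06 and 0.09 and were not called. Signaling through these receptors was not tested. Fkbp5, a chaperone gene, fell from 62.9 ± 15.3 to 36.5 ± 9.09 CPM (SD, n = 3 each; log2 fold change -0.79, SE 0.20, adjusted p = 0.0208 from edgeR). The call of Fkbp5 was lost without control 2 (adjusted p = 0.0617), IFNγR1KO 10 (0.0821) or IFNγR1KO 11 (0.115 from edgeR). Tef, a clock-output factor, fell from 62.6 ± 8.06 to 39.2 ± 2.38 CPM (log2 fold change -0.68, SE 0.14, adjusted p = 0.00741 from edgeR, and 0.0527 without IFNγR1KO 11). Its relative Dbp was called higher (log2 fold change 0.57, SE 0.17, adjusted p = 0.0416 from edgeR). That call was held in 1 of the 6 fits that left out a library, the one without IFNγR1KO 12, with adjusted p up to 0.174 in the others. It was also lost with DESeq2 (adjusted p = 0.0953), without the filter on low counts (0.0778 from edgeR) and with thinned libraries (0.0734 from edgeR). For Dbp, 18.0% of the exonic bases lie under an exon on the other strand.

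Of 25 genes described as KLF targets in other tissues, 14 were tested, 3 were called higher and 3 lower, and the median log2 fold change was 0.15. Ccl5, the chemokine gene that KLF13 activates in T cells, was at 1.09, 1.69 and 1.35 CPM in control and 8.67, 8.40 and 6.05 CPM in IFNγR1KO libraries (log2 fold change 2.47, SE 0.28, adjusted p = 0.000166 from edgeR). Atf3, a stress-induced factor gene reported downstream of KLF6, rose from 5.63 ± 1.31 to 27.8 ± 3.98 CPM (SD, n = 3 each; log2 fold change 2.31, SE 0.21, adjusted p = 2.3e-05 from edgeR). Col1a1, the collagen gene, rose from 1.33 ± 0.357 to 5.20 ± 1.39 CPM (log2 fold change 1.96, SE 0.32, adjusted p = 0.00175 from edgeR). The genes that fell are cell cycle genes described as targets of KLF5. Klf5 itself had at most 1 count in any library. A link to a KLF was not tested for any gene of this list. Ccnd1 had a log2 fold change of -0.97 (SE 0.18, adjusted p = 0.00288 from edgeR), Ccnb1 of -0.77 and Birc5 of -0.74 (adjusted p = 0.00220 and 0.0103 from edgeR). Of the exonic bases of Ccnd1, 23.4% lie under an exon on the other strand. The adjusted p of Birc5 was 0.0612 without control 2, and the other 5 genes were called whichever of the 6 libraries was left out. Cdkn1a, which KLF4 and KLF6 activate in epithelial cells, was not called (log2 fold change 0.12, SE 0.17, adjusted p = 0.718 from edgeR). S1pr1 and Thbd, targets of KLF2 in lymphocytes and endothelium, had at most 1 count in any library.

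**Figure D4:**
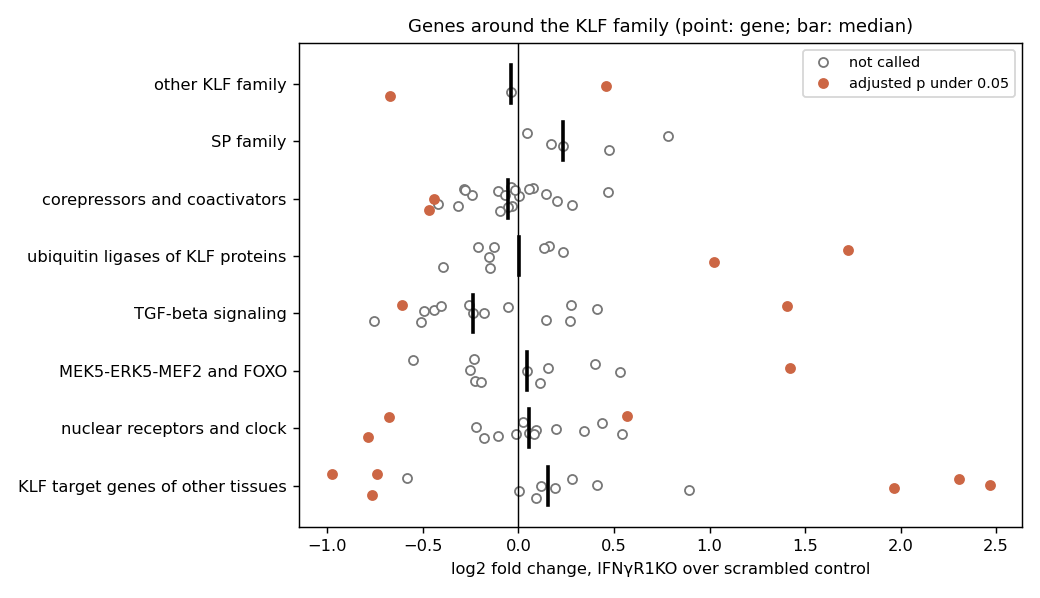
Fitted log2 fold change of IFNγR1KO over scrambled control (horizontal axis) of the tested genes of 8 lists (rows), with called genes filled, other genes open and the median of each list as a bar. Of the medians, that of TGF-β signaling is lowest at -0.24 and that of the SP family highest at 0.23.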

How the data were processed

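The authors mapped paired-end reads to GRCm38 with STAR 2.7.5a and counted them with htseq-count of HTSeq 0.11.2, and the deposited counts are raw reads per gene in 1 table per library. The annotation release and strand setting are not given in the sources used here. Between 46.9% and 47.7% of listed reads were set to no feature, a class that depends on the strand setting. Symbols came from GENCODE M21 (55154 of 55335 identifiers). In R 4.3.3, edgeR 4.0.16 was run with filterByExpr (minimum count 10, minimum total 15), TMM scaling, the quasi-likelihood test and Benjamini-Hochberg adjustment over 13642 genes. Standard errors are the absolute log2 fold change over the square root of F. A gene counted as differentially expressed also needed an absolute log2 fold change above 1, after the study. Klf4, Mef2b, Ccl5 and Col1a1 met the low-count filter only through their IFNγR1KO libraries. A floor of 3 counts was used. The steps were tested on simulated data. Alternatives were DESeq2 1.42.0, other scalings, no filter, thinning, a test against a fold change, other lengths and leaving out libraries. Named genes were all members, every tested KLF and SP gene, Ifngr1, and in each list the called genes ranked by adjusted p, at most 3 a direction. Gm20033, Gm26649, Ctbp1, Ctbp2, Sin3a, Sin3b, Siah1b, Wwp1, Fbxw7, Smad7, Mapk7, Nr3c1, Thra, Cdkn1a, S1pr1 and Thbd were named for their role after their values were seen. Members and lists were chosen with earlier results of these data known.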

Additional observations from a re-analysis of the deposited data

How the results depend on the processing

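Klf4 and Klf6 kept their direction and their call under each of 11 alternatives, and with the analysis without scrambled control 3 and IFNγR1KO 12, which was chosen after seeing the data. The number of members called lower was 1 without the filter on low counts and 0 to 1 with single libraries left out. With 1 library left out, 535 to 1372 genes were called higher and 457 to 1452 lower, and without both libraries 1447 were called higher and 1617 lower. The test against a log2 fold change of 1, which is not among the 11 alternatives, left 84 higher and 50 lower genes. Klf6, at a log2 fold change of 0.76, lies under that limit. Of the other KLF genes, 1 was called with library totals in place of TMM, 1 without the filter and 0 to 1 with single libraries left out. Of the SP genes, 1 was called with library totals, 1 without both libraries and 0 to 1 with single libraries left out. Of the corepressors and coactivators, 0 were called with library totals, 1 with thinned libraries, 5 without both libraries and 0 to 4 with single libraries left out. For TGF-β signaling these counts were 1 with library totals, 5 without both and 1 to 7 with single libraries left out. For the MEK5-ERK5-MEF2 and FOXO genes they were 0 with DESeq2, 3 without the filter, 2 with thinned libraries, 2 without both and 0 to 2 with single libraries left out. For the nuclear receptor and clock genes they ran from 0 to 3 with single libraries left out. Klf12 changed sign with library totals (0.005283) and ran from -0.264 to 0.1042 with single libraries left out, and Sp1 ran from -0.06371 to 0.2311. The cause of these changes was not tested. With the longest transcript as the length, the members summed to 36.71 CPM per kb in control and 53.62 CPM per kb in IFNγR1KO cells. For Klf2, at 1 to 10 counts a library, and Klf5, at 0 to 1, no difference was detectable at this depth. No paired analysis was possible because the groups share no replicate numbers.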
